A study of Saccharomyces cerevisiae with 12 samples.

Results

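The transcript response of set4Δ yeast to 18 h of hypoxia was measured by RNA sequencing, as the difference between 3 hypoxic and 3 aerobic libraries of the mutant. All genes of the table of this comparison with a mean of at least 10 normalized counts in either group were taken, and this rule kept 6058 of 6058 genes, out of 6078 in the whole series, in 6 of its 12 libraries. Cells were BY4741, a MATa laboratory strain of Saccharomyces cerevisiae, carrying the allele set4Δ::HIS3MX in both set4Δ groups, and the 6 wild-type libraries used for comparison came from the same background without the deletion. All groups grew at 30 °C in YPD, a rich glucose medium, and were collected in mid-log phase, either in air or after 18 h in sealed pouches that remove oxygen. The oxygen level inside the pouch was not among the values read here, and the labels name 1 strain per genotype, so that the deletion and any other mutation of that strain cannot be told apart. Nothing in the labels says that the 3 libraries of a group came from separate cultures, so that the spread between them may be technical. The p-values rest on this spread together with a prior variance taken from genes of like abundance.

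Yeast senses oxygen mostly through molecules whose synthesis needs it. Heme activates Hap1 and, through it, the repressor Rox1, which shuts off hypoxic genes in air, while falling sterol levels release the activators Upc2 and Ecm22. Without oxygen, cells import sterols instead of making ergosterol, replace wall mannoproteins of the Cwp type by those of the Dan, Tir and seripauperin (Pau) families, and switch to low-oxygen members of gene pairs such as CYC1 and CYC7. Set4 is a member of the Set3 family of SET-domain proteins, scarce in air and abundant in low oxygen.

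The values are normalized read counts, that is read counts per gene divided by a size factor of the library. They summed to 22090195 to 24446477 per library in this table. With the smallest step between values taken as 1 read, the libraries held 21732786 to 25864209 reads in genes. The 10 most abundant genes took 23.3% to 23.9% of the counts in air and 29.8% to 31.5% in hypoxia. Across genes, which are not independent replicates, log2 values of the aerobic libraries correlated with each other at 0.9946 to 0.9959 and those of hypoxic libraries 1 and 2 at 0.9965. Hypoxic library 3 stood apart from these, at 0.9828 and 0.9805. It held 65 genes more than 1 log2 unit above and 69 genes more than 1 log2 unit below libraries 1 and 2 where these were close to each other, of 5758 genes, against at most 6 genes in either direction in any other library. For most single genes named below whose call or size rests on this library, the value without it is given. Counts of gene lists below include it unless stated. Some move without it, such as replication genes lower (17 to 15) and actin and septin genes lower (8 to 10). What set this library apart was not tested. Library numbers are those of the columns of the table of this comparison. Another table holds the same hypoxic libraries with numbers 1 and 3 exchanged, so that which labelled replicate a number stands for is not known.

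SET4, on chromosome X from 225055 to 226737 of the R64 assembly, had 0, 3.78 and 0 normalized counts in the aerobic set4Δ libraries and 21.2, 16.6 and 26.0 in the hypoxic ones. Every set4Δ library was thus near 0, beside a mean of 6254 in hypoxic wild-type libraries. The remaining counts nonetheless differed between the groups (a log2 fold change of 3.70 with a standard error of 0.74, limma adjusted p = 0.002), and the part of neighbouring or marker sequence in them was not tested. Of the neighbours of the deletion, PAM16, which encodes a subunit of the mitochondrial import motor, had a log2 fold change of -0.30 and was not called. YJL107C rose by 1.24. HIS3, of which BY4741 carries a partial deletion, rose from 1327 ± 30.3 to 3958 ± 1160 normalized counts (SD, n = 3). It was called higher in hypoxic wild-type cells too, which lack the marker, and its response was not called different between the genotypes. The MATa identity of the cells was checked with 7 genes expressed in MATa cells, which summed to 36583 to 41066 counts in air and 13852 to 25573 in hypoxia, against 492 to 544 and 936 to 1141 for 3 genes of MATα cells. In hypoxia 5 of the 7 MATa genes were lower, with the pheromone protease gene BAR1 at -2.67 and the receptor gene STE2 at -1.07 on the log2 scale, and 1 of the 3 MATα genes, the agglutinin SAG1, was higher at 1.17. STE2 lost its call without hypoxic library 1 (-0.89) or 2 (-0.92).

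After 18 h of hypoxia, 1128 genes (18.6%) were called higher in set4Δ cells and 938 (15.5%) lower, together 34.1% of all genes. A call needed a log2 fold change of 1 or more either way with an adjusted p no larger than 0.05. The median log2 fold change of all genes was 0.01. The groups of 5022 genes (82.9%) did not overlap. Of the gene lists described below, those of the anaerobic wall had the highest median log2 fold changes, 8.56 and 5.69, and gluconeogenesis and acetate use had 3.05 and slow growth 2.22. Glycolysis and fermentation had the lowest, at -1.98, beside -1.94 for the aerobic wall, -1.74 for histones, -1.64 for daughter cell separation and -1.57 for ribosomal proteins. Of the 15 largest rises, every one was a PAU gene. Of the 15 largest falls, 6 encode wall proteins or wall enzymes (CWP2, TOS6, SRL1, SCW10, CCW12 and UTR2), and the others include the histone genes HTA2 and HTB2, the replication genes RNR1 and POL30, the G1 cyclin gene PCL1, the endonuclease gene HO and TDH2 of glycolysis. Lists of genes with a common role are described in what follows by how many of their measured members were called, beside 18.6% and 15.5% over all genes.

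**Figure D1:**
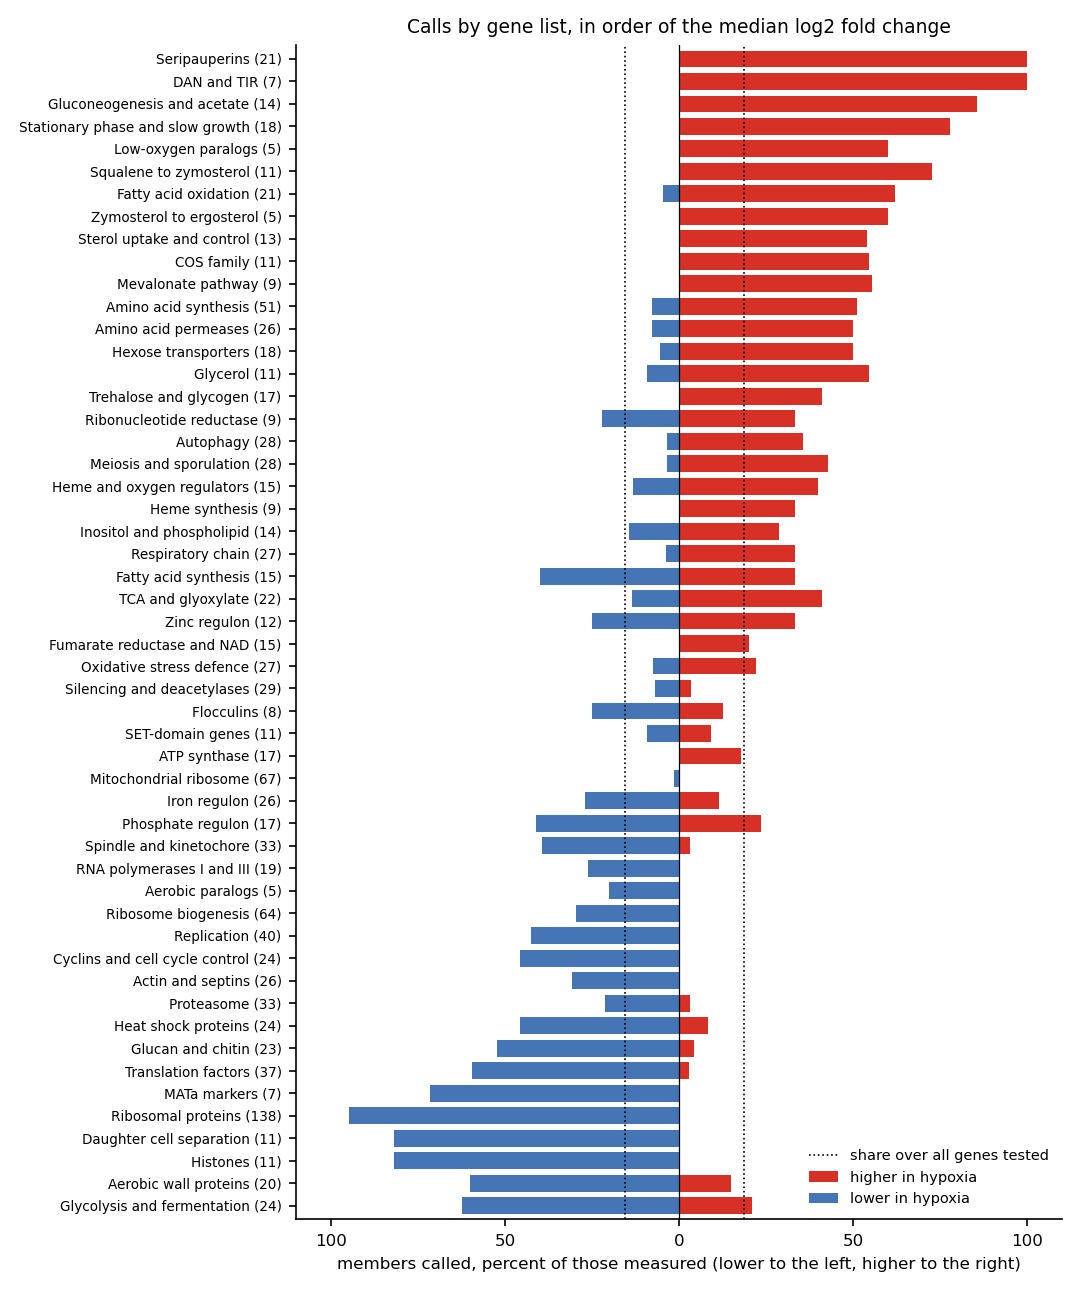
Percent of the measured members of each gene list called higher (red, to the right) or lower (blue, to the left) in hypoxic against aerobic set4Δ cells, with the number measured in brackets and the lists in order of their median log2 fold change. Dotted lines mark the shares over all genes, 18.6% higher and 15.5% lower; all members of the seripauperin and the DAN and TIR lists were higher and 131 of 138 ribosomal protein genes lower.

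Seripauperins are small serine-rich wall mannoproteins encoded mostly near chromosome ends and known for their expression in the absence of oxygen. All 21 measured PAU genes rose in set4Δ cells, with log2 fold changes of 3.96 to 13.84 and a median of 8.56, and their share of all counts went from 0.00339% to 1.65%. PAU1, PAU14 and PAU22 were not analysed here. PAU24 had 125 ± 23.3 normalized counts in air (SD, n = 3) and 69557, 65585 and 69449 in hypoxia. The hypoxic libraries lay close together for this gene and far above the aerobic ones (log2 fold change 9.10). PAU19 had 1.01, 0 and 0 in air and 15154, 13834 and 30314 in hypoxia, that is 1 read against 59992, a ratio of 58625 with an exact 95% counting interval of 10522 to 2315623. PAU16 had 1.01, 0.945 and 0 in air and 1578, 1214 and 753 in hypoxia. These genes were close to silent in air and well expressed in every hypoxic library.

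At the low end of the family, PAU21 had no read in air and 23.1, 9.36 and 32.0 normalized counts in hypoxia, which is at least 21.5-fold higher when 3 reads over the group are taken as the floor in air. PAU6 rose least on the log2 scale, by 3.96. Of the 21 genes, 15 share more than 50% of their sequence with other places in the genome, counted in words of 50 bases, and the treatment of multi-mapping reads was not stated in the sources. The division of reads among these copies is therefore uncertain, but the 6 PAU genes without such sequence were also all called higher. They include PAU3 (25.2, 22.7 and 22.7 in air, 10516, 10201 and 7436 in hypoxia) and PAU23 (97.8, 78.5 and 84.4 in air, 21266, 17744 and 47296 in hypoxia). For both genes the lowest hypoxic library stood far above the highest aerobic one.

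The DAN and TIR genes encode the larger anaerobic mannoproteins, and all 7 rose, with a median of 5.69. PAU23, also known as DAN2, is counted among them as well as among the PAU genes. TIR1 had 3046, 3171 and 3034 normalized counts in air and 55349, 51777 and 104133 in hypoxia, where library 3 lay far above the others. DAN4 rose from 191 ± 24.9 to 13211 ± 2101 (SD, n = 3), a log2 fold change of 6.10 with a standard error of 0.13 (limma, adjusted p = 3.5e-08). DAN1, TIR2, TIR3 and TIR4 rose by 5.69, 4.07, 5.21 and 6.12. Together the list went from 0.0189% to 0.757% of all counts.

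**Figure D2:**
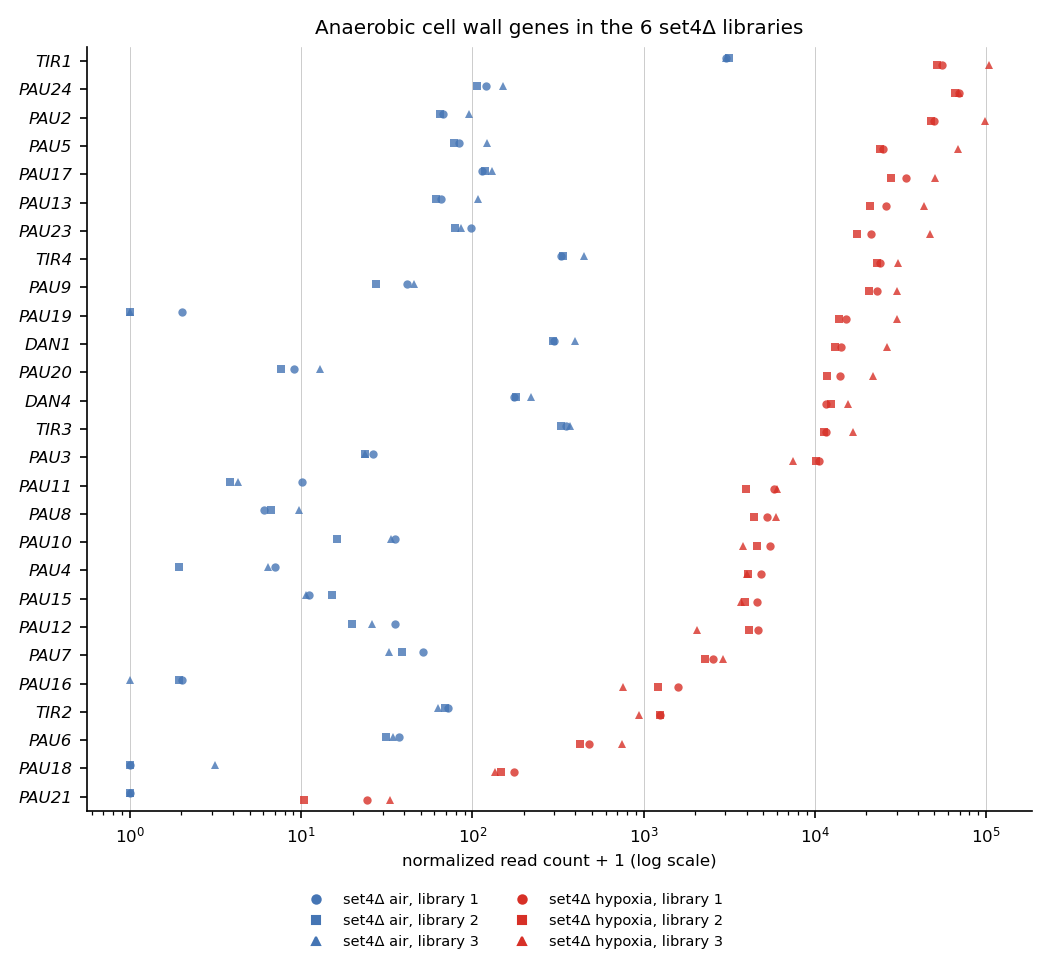
Normalized read counts plus 1 (log axis) of the 27 measured PAU, DAN and TIR genes in each set4Δ library, blue for air and red for hypoxia, with the marker shape giving the library, in order of the hypoxic mean. No gene overlaps between the groups, beside 82.9% of all genes without overlap. PAU19 has 1.01, 0 and 0 counts in air, and for many genes hypoxic library 3 (triangle) lies above the other 2.

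Genes of this family carry the anaerobic response element AR1, written here as TCGTTCAG or TCGTTTAG, in the 500 bases before the start codon. TCGTTCAG, searched on both strands, was found in 16 of 21 PAU promoters (76.2%) and in 86 of all 5818 promoters of protein-coding genes (1.48%). It was found in 35 of 1046 promoters of genes called higher (3.35%) and in 10 of 919 of genes called lower (1.09%). The 35 include the 16 PAU promoters and those of 3 of the 7 DAN and TIR genes, PAU23 being in both lists. The larger share among genes called higher is therefore mostly that of these families. The following stretches, read from the RefSeq R64 genome along the strand of the gene, show the element in capitals in genes whose responses are described above and below. In PAU19, PAU12 and TIR4 the element lies on the other strand, so that its complement is in capitals.
PAU4: atgtatgatTCGTTCAGaaacaagag
PAU16: atgtatgatTCGTTCAGaaacaagag
PAU11: atgtatgatTCGTTCAGaaacaagag
PAU19: aatacgcttCTGAACGAggatctata
PAU12: agatggcctCTGAACGAgggttcaaa
DAN4: agatctccaTCGTTCAGgaactgtaa
TIR4: acagggttcCTAAACGAtgcatttct
The stretch of PAU4 lies at chrXII:1062677-1062702 on the plus strand, that of PAU16 at chrXI:2398-2423 and that of PAU11 at chrVII:6869-6894, both on the minus strand. In all 3 the element ends 225 bases before the start codon. The 26 bases are the same in 5 of the 21 PAU promoters and occur in none of the other promoters searched. In the stretches of PAU19 (chrXIII:922207-922232) and PAU12 (chrVII:1079864-1079889) the element ends farther away, 417 and 425 bases before the start codon. The bases around it differ from those of PAU4. Those of DAN4 and TIR4 lie at chrX:715920-715945 on the minus strand and chrXV:344103-344128 on the plus strand. A match of these letters is a description and does not show binding.

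The mannoproteins of aerobic walls moved the other way. Of 20 genes, 12 fell and 3 rose, with a median of -1.94. CWP2, a covalently linked wall mannoprotein, had 28968, 34738 and 27208 normalized counts in air and 348, 409 and 285 in hypoxia, the largest fall of any gene (-6.45 with a standard error of 0.15 on the log2 scale, limma adjusted p = 3.8e-08). CCW12, which encodes a small wall protein and was among the 10 largest losses of counts, had 163766, 171415 and 149944 counts there and 6853, 7613 and 6979 in hypoxia. The groups of both genes were far apart and the libraries within a group close together. TOS6, SRL1, CWP1 and SVS1 fell too, with log2 fold changes of -4.83, -4.76, -3.41 and -3.32. The 3 genes that rose were PIR3 at 2.78, SPI1 at 2.15 and PST1 at 1.18. PST1 had 6977, 6455 and 21828 counts in hypoxia, highest in library 3, and its log2 fold change was 0.61 and not called without that library.

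Enzymes that build and remodel wall glucan and chitin were mostly lower, 12 of 23 with 1 higher and a median of -1.13. The transglycosidase genes SCW10, UTR2, GAS3 and GAS1 fell, with log2 fold changes of -4.63, -4.05, -3.63 and -3.29, and so did the septum chitin synthase gene CHS2, at -3.41. The exception was GSC2, the stress-linked glucan synthase subunit, which went from 4318 ± 176 to 53633 ± 7416 counts (SD, n = 3; log2 fold change 3.63). Its paralog FKS1 fell by 1.35. Genes that part the daughter cell from its mother followed, with 9 of 11 lower, none higher and a median of -1.64, among them EGT2 at -3.18, SCW11 at -2.45 and the chitinase gene CTS1 at -2.26. DSE1, at -0.76, and PRY3, at 0.44, were not called, DSE1 reaching -1.10 and a call without hypoxic library 3.

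Ergosterol synthesis needs oxygen at several steps, and genes in each stretch of its pathway rose in hypoxia. From acetyl-CoA to farnesyl pyrophosphate 5 of 9 genes rose (median 1.06), from squalene to zymosterol 8 of 11 (median 1.28) and from there to ergosterol 3 of 5 (median 1.11), and none of the 25 fell. The scaffold gene ERG28 rose most, from 959, 917 and 981 normalized counts in air to 8276, 7629 and 8917 in hypoxia. ERG1, the squalene epoxidase and the first step to consume oxygen, had 8828, 9716 and 8363 in air and 41389, 41789 and 37883 in hypoxia. The hypoxic values of both genes lay far above the aerobic ones in every library. CYB5, an electron donor of the pathway, and ERG5, a desaturase, rose by 2.58 and 2.65, and ERG11 by 1.05. ERG3, at 0.73, did not reach a log2 fold change of 1 and was not called, while after quantile normalization it was 1.10 and called. ERG4, the last step, was the only 1 of the 25 genes with a negative log2 fold change, at -0.42, and was not called.

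Of 13 genes of sterol uptake and its control, 7 rose and none fell, with a median of 1.11. AUS1, a sterol importer of the plasma membrane, had 1062, 1172 and 1263 normalized counts in air and 25161, 24366 and 48367 in hypoxia. Its fellow importer PDR11 rose by 2.59. SUT1, which promotes sterol uptake, rose by 3.87, and UPC2, the sterol-sensing activator, went from 2488 ± 29.5 to 18678 ± 1484 (SD, n = 3). Its paralog ECM22 rose by 1.11 and the heme-responsive HAP1 by 1.67. TCGTATA, the core of the sterol response element bound by Upc2, was found in 4 of 11 promoters from squalene to zymosterol (36.4%), in 4 of 7 DAN and TIR promoters (57.1%), in 1 of the 13 promoters of sterol uptake and control (7.69%) and in 408 of all 5818 (7.01%). It is in capitals in the following stretches, on the other strand in CYB5 and DAN4.
ERG1: agcgggcctTCGTATAgctcggccg
CYB5: aaagaaagcTATACGAgatcgagat
ERG25, first: tgcctccctTCGTATAcgggacaca
ERG25, second: acacagagaTCGTATAcggtaaacg
DAN4: gtcaaaaatTATACGAgatctgttt
They lie at chrVII:848790-848814 on the minus strand (ERG1), chrXIV:417562-417586 on the minus strand (CYB5), chrVII:610072-610096 and chrVII:610092-610116 on the plus strand (ERG25) and chrX:715947-715971 on the minus strand (DAN4). In DAN4, with its rise of 6.10, this element and AR1 lie beside each other, and ERG25, with matches 476 and 456 bases before its start codon, rose by 1.28.

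Fatty acid genes moved in both directions. OLE1, the desaturase that needs oxygen, went from 21159, 18996 and 23368 normalized counts in air to 173356, 170115 and 186174 in hypoxia, one of the largest gains of counts. The genes of synthesis proper, ACC1, FAS1 and FAS2, rose by 1.60, 1.29 and 1.85, as did MGA2, an activator of OLE1, by 2.29. Of the elongation genes IFA38, ELO1, ELO2, TSC13 and ELO3 fell, at -2.22, -1.99, -1.77, -1.65 and -1.42, while PHS1, at -0.17, was not called. In all 5 of 15 rose and 6 fell, with a median of 0.41. Of 14 genes of inositol and phospholipid synthesis, among them those of the activator pair Ino2 and Ino4, 4 rose and 2 fell. INO1, which makes inositol phosphate, had 254, 195 and 228 counts in air and 2196, 2286 and 1434 in hypoxia, and INO2 rose by 1.88. CHO2 and CPT1 fell, at -1.38 and -1.46, and OPI3, at 0.41, and CHO1, at 0.08, were not called. CATGTGAA, the element of the pair, was in 10 of these 14 promoters (71.4%) and in 83 of all 5818 (1.43%). INO1 holds it on both strands, at chrX:136160-136185 and chrX:136097-136122, and is read here along its own minus strand.
INO1, first: taaatgcggCATGTGAAaagtattgt
INO1, second: cttatttaaTTCACATGgagcagaga
CHO1: ctttgagctTTCACATGgacccatct
The stretch of CHO1, which was not called, lies at chrV:208619-208644 on the minus strand with the element on the other strand.

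Low-oxygen members of gene pairs were higher in 3 of 5 cases. ANB1, the hypoxic form of translation factor eIF5A, had 744, 773 and 689 normalized counts in air and 6771, 6951 and 7065 in hypoxia, while its aerobic partner HYP2 fell from 25007, 25169 and 23181 to 11050, 10891 and 6817. Neither gene overlapped between the groups, as was so for 82.9% of all genes. The log2 fold change of HYP2 was -0.99 and not called after quantile normalization. CYC7, the hypoxic cytochrome c, rose by 4.14 and COX5B, a cytochrome oxidase subunit, by 1.93. AAC3, at 0.08, and HMG2, at 0.24, were not called. Among the aerobic partners CYC1, COX5A, PET9 (AAC2) and HMG1 had -0.75, 0.20, -0.76 and 0.59 and were not called. Of 9 heme genes 3 rose and none fell. HEM13, whose enzyme needs oxygen, had 2539, 2592 and 2378 counts in air and 6158, 5555 and 17890 in hypoxia, a log2 fold change of 1.76, or 1.22 without library 3, which lay far above the others in hypoxia. Among 15 regulators of oxygen and heme response 6 rose, ROX1 among them at 1.28, and 2 fell, HAP4 at -1.50 and TUP1 at -1.31.

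Genes of glucose breakdown were mostly lower and those of other carbon sources mostly higher. Of 24 genes of glycolysis and fermentation 15 fell and 5 rose, with a median of -1.98, and the list went from 12.9% to 2.56% of all counts. TDH3, glyceraldehyde-3-phosphate dehydrogenase and the largest loss of counts, had 523413, 582561 and 496087 in air and 29561, 29036 and 60717 in hypoxia. ENO2, PDC1, FBA1 and ADH1 fell, with log2 fold changes of -3.69, -2.57, -2.79 and -2.53. The 5 that rose were minor isoforms or kinases. They were ADH5 at 3.62, HXK1 at 3.55, PDC6 at 2.06, PYK2 at 1.70 and GLK1 at 1.02, while the major hexokinase gene HXK2 fell by 2.37. GLK1 lost its call without hypoxic library 3 (0.93) or aerobic library 3 (0.95), which left 4.

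Of 14 genes of gluconeogenesis and acetate use, 12 rose and none fell, with a median of 3.05. PCK1, the gluconeogenic carboxykinase, had 118, 86.0 and 89.8 counts in air and 2040, 1953 and 1158 in hypoxia. The activator genes CAT8 and SIP4 rose by 3.93 and 5.10 (SIP4 5.71 without hypoxic library 3), ACS1, acetyl-CoA synthetase, by 4.45, and ADY2, an acetate transporter, by 5.08. Of 18 hexose transporters and sensors 9 rose and 1 fell. The high-affinity HXT6 rose from 68.5, 72.8 and 60.6 to 1636, 1286 and 2955, and the low-affinity HXT1, used at high glucose, fell from 11411, 10913 and 11676 to 2743, 2951 and 1152. The residual glucose of the cultures is not among the values read here, and its part was not tested. HXT genes share sequence, and of the 9 that rose 5 did so without the genes in repeated sequence. Of 11 glycerol genes 6 rose, DAK2 and GUT2 by 3.17 and 2.55, and 1 fell, the phosphatase gene GPP1, at -2.13.

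**Figure D3:**
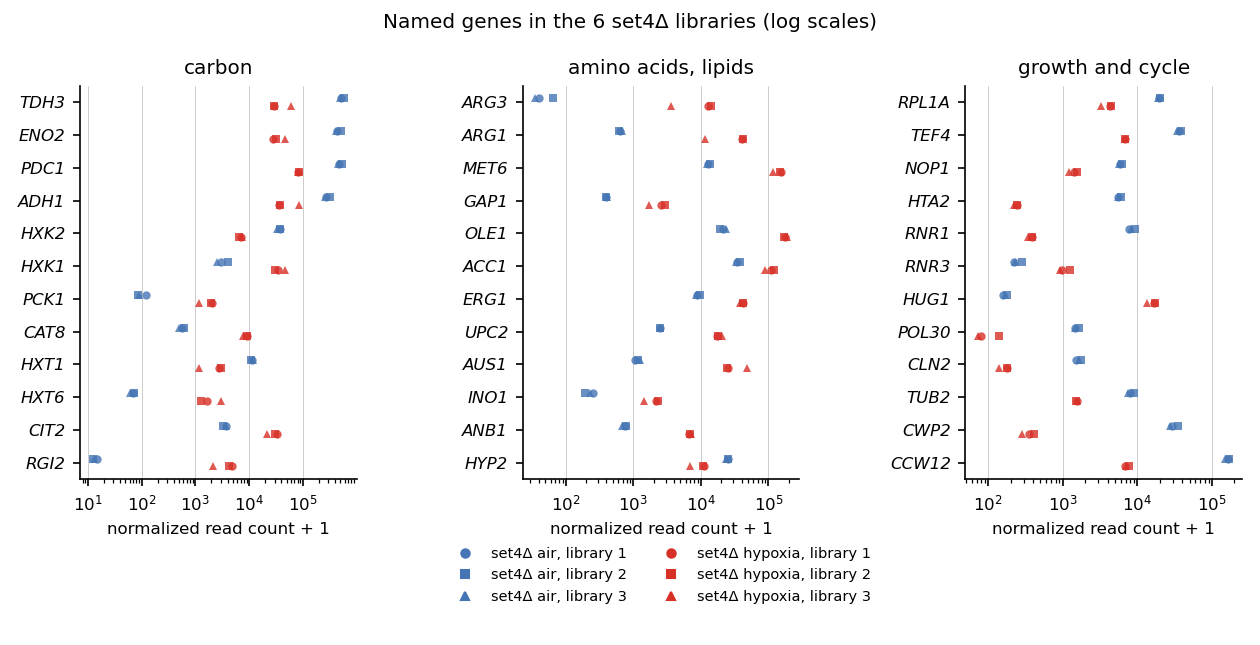
Normalized read counts plus 1 (log axes) of 36 genes named in the text in each set4Δ library, blue for air and red for hypoxia, with the marker shape giving the library. Glycolytic genes such as TDH3 fall and PCK1 and RGI2 rise in the left panel, arginine and lipid genes rise in the middle panel with hypoxic library 3 (triangle) lowest for ARG3, and growth genes fall in the right panel, where HUG1 and RNR3 rise.

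Respiratory genes did not fall as a group. Of 27 nuclear genes of the respiratory chain 9 rose and 1 fell (median 0.61), and NDE2 rose by 2.22 while NDE1, its paralog among the external NADH dehydrogenases, fell by 1.41. Of 17 ATP synthase genes 3 rose, all of them regulators of the enzyme (INH1, STF1 and STF2), and the median was -0.24. STF2 had 0.92 and was not called without hypoxic library 3, which left 2. Protein genes of the mitochondrial genome were not analysed here. Of 22 genes of the citrate and glyoxylate cycles 9 rose, led by the peroxisomal citrate synthase gene CIT2 at 2.95, and 3 fell, led by aconitase, ACO1, at -1.62. Fatty acid oxidation followed the same side, with 13 of 21 higher, 1 lower and a median of 1.19, and the carnitine acetyltransferase genes YAT1, YAT2 and CAT2 at 4.47, 3.54 and 3.42. YAT2 had 4.21 without hypoxic library 3. Of 15 genes of fumarate reduction and NAD synthesis 3 rose, the kynurenine genes BNA2, BNA3 and BNA1, and PNC1, at 0.47, was not called.

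Genes of slow growth rose. Of 18, 14 were higher and none lower, with a median of 2.22. RGI2, a gene of energy metabolism in respiring cells, had 14.1, 11.3 and 11.9 normalized counts in air and 4912, 4255 and 2141 in hypoxia, and SPG4, required in stationary phase, 30.2, 21.7 and 33.5 against 4463, 4361 and 1278. Hypoxic library 3 was lowest for both, and SPG4 reached 7.25 without it against 6.65 with it. For HSP12 and HSP26 library 3 was the highest instead. HSP26, a small heat shock protein, had 387, 693 and 431 in air and 5729, 4667 and 49648 in hypoxia, and its log2 fold change of 4.49 was 3.41 without library 3 and 5.11 without library 2. Of 24 chaperone genes HSP12 and HSP26 were the only 2 that rose, while 11 fell, with SSA2 and HSC82 at -3.16 and -2.72 (median -1.12), and 15 fell without hypoxic library 3. Of 17 genes of trehalose and glycogen 7 rose, GDB1 by 3.98 and GAC1 by 3.51, and none fell. Of 27 genes of oxidative stress defence 6 rose and 2 fell. TSA2 rose by 5.17 and its paralog TSA1 fell by 1.18 (-0.78 and not called after quantile normalization), and the catalase gene CTT1 rose by 1.78. AGGGG, the stress response element, was in 489 of 1046 promoters of genes called higher (46.7%), 264 of 919 of genes called lower (28.7%) and 2003 of all 5818 (34.4%).

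Amino acid genes were higher, 26 of 51 of synthesis with 4 lower (median 1.04) and 13 of 26 of uptake with 2 lower (median 1.02). The arginine genes led. ARG3, ornithine carbamoyltransferase, had 39.3, 63.3 and 34.6 counts in air and 12861, 14222 and 3609 in hypoxia, with library 3 well below the others and a log2 fold change of 7.59, or 8.22 without that library. ARG1, ARG5,6 and ARG4 rose by 5.38, 5.29 and 3.94, and ARG1 had 5.99 without library 3. Of the methionine and sulfate genes, MET10 and MET3 rose by 4.49 and 4.38, and MET6, methionine synthase, was among the largest gains of counts, from 12885 ± 702 to 139404 ± 20919 (SD, n = 3). LEU1 rose by 2.23. The genes that fell were ASN2, THR1, LYS9 and GLN1, the last at -1.01 and under 1 in size in 4 alternatives. Among permeases MMP1 and GAP1 rose by 2.66 and 2.56, and PTR2, the peptide transporter, fell by 1.83. TGACTCA, bound by the general control activator Gcn4, was in 29 of 50 promoters of the synthesis genes (58%) and in 235 of all 5818 (4.04%), with 79 of 1046 (7.55%) among genes called higher. It is in capitals in these arginine genes.
ARG3: gtcacgtcgTGACTCAtatgctttc
ARG1: attttttagTGACTCAtgtcgcatt
ARG4: gtagatgaaTGACTCActttttgga
The stretches lie at chrX:268476-268500 and chrXV:218857-218881 on the plus strand and chrVIII:141566-141590 on the minus strand.

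The translation machinery was lower. Of 138 ribosomal protein genes 131 fell and none rose (median -1.57), and their counts summed to 3186968 to 3499331 in air and 858761 to 1296925 in hypoxia. RPL1A fell most (log2 fold change -2.32), from 19465, 20186 and 18909 counts to 4249, 4377 and 3202. Duplicate ribosomal protein genes share sequence, and their values can be split between copies. Of 37 translation factor genes 22 fell and only ANB1 rose (median -1.15). TEF4 had 36000, 39005 and 34017 counts in air and 6849, 6872 and 6870 in hypoxia, where the libraries were almost equal. Ribosome biogenesis followed, with 19 of 64 lower, none higher and a median of -0.77, led by the nucleolar genes NOP1 at -2.09 and GAR1 at -1.84. Of 19 genes of RNA polymerases I and III 5 fell, with RPC31 at -1.48 and RPA12 at -1.39. Of 67 genes of the mitochondrial ribosome MRPL50 alone fell, at -1.29, none rose, and the median was -0.26. Of the 64 biogenesis promoters, 53 held AAAATTTT (82.8%, against 12.6% of all promoters) and 37 held GATGAGC (57.8%, against 7.65%). NSR1, at -1.21, and NOP1 hold both elements next to each other.
NOP1, GATGAGC on the other strand: aattggaaaGCTCATCtctcttgaa
NOP1, AAAATTTT: ttttcttgaAAAATTTTtcaaattgg
NSR1, GATGAGC on the other strand: gcaagggcaGCTCATCgcaagaacg
NSR1, AAAATTTT: gcaagaacgAAAATTTTcaatccaat
They lie at chrIV:427150-427174 and chrIV:427130-427155 on the plus strand (NOP1) and chrVII:807829-807853 and chrVII:807812-807837 on the minus strand (NSR1).

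Genes expressed in dividing cells were lower, and fewer dividing cells and less RNA per cell cannot be told apart in such bulk samples. Of 11 histone genes 9 fell and none rose (median -1.74). HTA2 had 5514, 6051 and 5573 counts in air and 244, 243 and 222 in hypoxia, and its divergent neighbour HTB2 fell by 3.94. The variant genes CSE4, at -0.42, and HTZ1, at -0.01, were not called. Of 40 replication genes 17 fell and none rose (median -0.82), led by the sliding clamp gene POL30, with 1449, 1629 and 1465 in air and 78.5, 137 and 72.1 in hypoxia. Of 24 genes of cyclins and cell cycle control 11 fell and none rose. They include the G1 cyclin genes PCL1, CLN2 and CLN1 (-3.95, -3.29 and -2.72), the S phase cyclin gene CLB6 (-3.54) and the mitotic cyclin gene CLB1 (-3.63). Of 33 spindle and kinetochore genes 13 fell, TUB2 at -2.41, and 1 rose, SPC25 at 1.20, although SPC24, which encodes its partner in the Ndc80 complex, fell by 1.78. Of 26 genes of actin and septins 8 fell, among them CDC3 at -1.52 and ACT1 at -1.26, the latter -0.94 and not called after quantile normalization.

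Ribonucleotide reductase, which makes the precursors of DNA, split among its genes. RNR1, the large subunit, had 7756, 9157 and 8117 counts in air and 381, 391 and 344 in hypoxia (-4.48 with a standard error of 0.09 on the log2 scale, limma adjusted p = 2.3e-08). RNR3, the alternative large subunit known from DNA damage, rose from 218, 279.8 and 226 to 988, 1253 and 922. HUG1, an inhibitor of the enzyme induced by DNA damage, rose from 155, 176 and 167 to 16802, 17489 and 13528. The hypoxic libraries were far above the aerobic ones for both. RNR2 rose by 1.09, or 0.90 without hypoxic library 3, RNR4, at 0.80, and SML1, at -0.39, were not called, and the kinase gene DUN1 fell by 1.45. ACGCGT, bound by the G1/S factor MBF, was in 21 of 40 replication promoters (52.5%), 84 of 919 promoters of genes called lower (9.14%) and 319 of all 5818 (5.48%). CGCGAAA, bound by SBF, was in 5 of 11 histone promoters (45.5%), 109 of 919 of genes called lower (11.9%) and 346 of all (5.95%). The first reads the same on both strands and can overlap the second. RNR1 held it 4 times, CLB6 2 times and POL30 once.
RNR1, site 1: gcttgtttACGCGTtttatccca
RNR1, site 2: aaagaaaaaACGCGTaaacagtgt
RNR1, site 3: tctaagtaaACGCGTcattttgat
RNR1, site 4: gaatagaggACGCGTaaaaacgat
POL30: aaacgcgaaACGCGTaactttttt
CLB6, first: agcagttttACGCGTaccacaaaa
CLB6, second: taacgaccaACGCGTattcttcgc
In RNR1 they lie on the plus strand at chrV:298450-298472, chrV:298499-298522, chrV:298570-298593 and chrV:298635-298658, and on the minus strand in POL30 at chrII:425947-425970 and in CLB6 at chrVII:706890-706913 and chrVII:706864-706887.

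Genes of meiosis and sporulation were higher in 12 of 28 cases and lower in 1, at low levels. Their median was 0.67, but 0.07 after quantile normalization. REC8, the meiotic cohesin, had 23.2, 15.1 and 22.7 counts in air and 226, 216 and 205 in hypoxia, and DMC1, the meiotic recombinase, rose by 2.75. SPS4 fell by 1.57. IME2, an early meiotic kinase gene beside the SET4 locus, had 355, 265 and 331 counts in air and 1475, 1497 and 1193 in hypoxia (2.13 with a standard error of 0.14 on the log2 scale, limma adjusted p = 4.1e-06). It lies 1727 bases from SET4, and an effect of the inserted marker on it was not tested. Of 28 autophagy genes 10 rose, led by the kinase gene ATG1 at 3.11 and ATG22, a vacuolar amino acid exporter, at 2.41, and 1 fell, ATG27 at -1.14. Of 33 proteasome genes 7 fell and RPN4, the transcription factor of the others, alone rose, by 2.07, with a median of -0.88; without hypoxic library 3, 12 fell.

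Metal and phosphate genes moved in both directions. Of 26 genes of the iron regulon 7 fell and 3 rose (median -0.55). FET3, the multicopper oxidase of high-affinity uptake, had 33921, 33474 and 35126 counts in air and 4412, 4146 and 3266 in hypoxia, and the reductase gene FRE1 fell by 3.60, while HMX1, heme oxygenase, rose by 1.74. Of 17 phosphate genes 7 fell and 4 rose (median -0.65). PHO89, a phosphate transporter, rose from 475, 418 and 509 to 17501, 16393 and 5151, and the acid phosphatase gene PHO3 fell by 3.66. Without hypoxic library 3, 4 phosphate genes fell in place of 7, PHO11 at -0.91 no longer among them. Of 12 zinc genes 4 rose, the membrane receptor gene IZH4 most at 3.96, and 3 fell, the vacuolar transporter gene ZRC1 most at -1.97. The zinc median was 0.39, or 0.05 after quantile normalization. Of 8 flocculins and adhesins 1 rose, FIG2, and AGA1 and AGA2 fell, with FLO11 at -0.43 and not called (median -0.08). AGA1, at -1.11, lost its call without hypoxic library 1 (-0.92) or 2 (-0.94).

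Chromatin genes moved little. Of 29 genes of silencing and deacetylase complexes SIR1 rose, at 1.57, and HST3 and SIR3 fell, at -1.37 and -1.10, and the median of 0.06 was -0.01 after quantile normalization. Of 11 SET-domain genes RKM1 fell, at -1.70, and apart from SET4 itself none rose (median -0.17). Near chromosome ends the share of genes called higher was 40.4%, beside 16.1% elsewhere. Within 40 kb of an end 199 of 492 genes (40.4%) rose and 50 (10.2%) fell, with a median of 0.69. Farther inside, 16.1% of 5452 genes rose and 16.2% fell. Without the PAU, DAN, TIR and COS genes the share within 40 kb was 37.8% of 463 genes higher and 10.8% lower. In the outermost 10 kb 57 of 95 genes share most of their sequence with other places, so that their reads may be mixed. The subtelomeric COS family, membrane proteins involved in protein sorting, rose in 6 of 11 cases and fell in none, COS4 by 3.17 and COS10 by 2.55. The median was 1.09, or 0.62 after quantile normalization, and 5 rose without hypoxic library 3. All 11 genes lie within 40 kb of an end, and 6 are mostly repeated sequence. Of all genes, 56.8% under 10 kb from an end and 59.0% from 10 to 20 kb were called higher. At the left end of chromosome VII, 4 of 7 genes rose and 1 fell. COS12 had 19.2, 36.9 and 37.9 counts in air and 98.8, 44.7 and 61.1 in hypoxia, and its rise of 1.09 lost the call without aerobic library 1 or hypoxic library 1 (0.78 each) and was 0.20 after quantile normalization. YPS5, an aspartic protease gene, rose by 2.22 from 28.2, 30.2 and 20.6 to 142, 123 and 112. PAU11 rose by 9.88 and ZRT1, a zinc transporter gene and the innermost of the 7, fell by 1.04. ZRT1 lost its call without hypoxic library 3 (-0.96) or aerobic library 3 (-0.98) and after scaling to equal totals (-0.96), so that none of the 7 then fell.

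**Figure D4:**
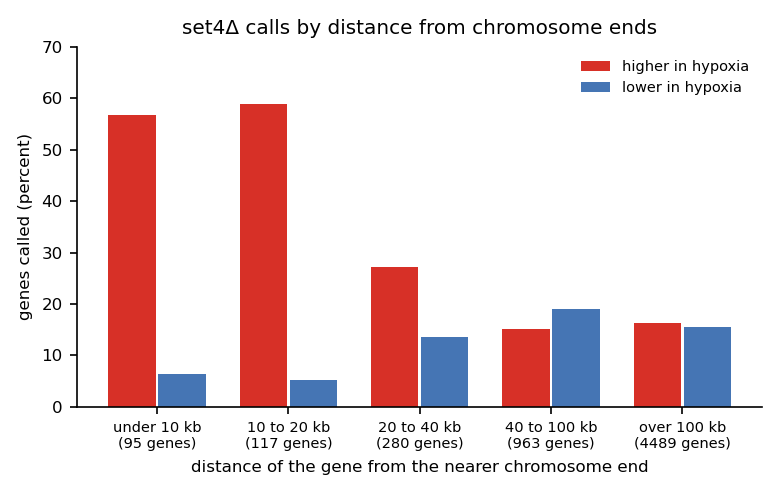
Percent of genes called higher (red) or lower (blue) in hypoxic against aerobic set4Δ cells, by distance of the gene from the nearer chromosome end, with the number of genes in brackets. The share called higher is 56.8% under 10 kb and 59.0% from 10 to 20 kb, against 16.3% beyond 100 kb.

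RNAs that do not code for protein took a larger share in hypoxia. Ribosomal RNA had been removed before sequencing, and protein-coding genes went from 81.5% to 66.2% of the counts. SCR1, the RNA of the signal recognition particle, went from 9.48% to 16.9%. Its share was 9.27% to 9.83% across the aerobic libraries and 16.0% to 17.8% across the hypoxic ones. Its log2 fold change of 0.76 had a standard error of 1.18 and was not called. That error reflects the trended prior variance of limma for genes of like abundance rather than the spread of these close libraries. After quantile normalization the log2 fold change of SCR1 was -0.00. Small nucleolar RNAs went from 4.96% to 9.92%, with 18 of 76 called higher and 7 lower. snR17a, the U3 RNA, gained most counts of all genes called, from 235169, 221572 and 313169 to 543912, 580720 and 473724, but lost its call without aerobic library 1 or 2 or hypoxic library 1 or 2, at 0.97 to 1.05. snR30 and snR37 rose by 1.19 and 1.12, and snR30 had 1.12 and was not called without aerobic library 1. Of 132 tRNA genes 57 rose and 8 fell. Since the counts are relative, a larger share of these RNAs and a smaller amount of messenger RNA cannot be told apart. TFC1, a subunit gene of transcription factor TFIIIC, had 941, 1013 and 910 counts in air and 982, 966 and 1004 in hypoxia, a log2 fold change of 0.04.

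To see which of these responses go with the deletion, each gene's response in set4Δ cells was compared with that in wild-type cells, measured in other libraries of another table. Over 6025 genes the 2 sets of log2 fold changes correlated at 0.975 (Pearson) and 0.974 (Spearman) across genes, 93.1% of genes lay within 0.5 of each other and the median difference was -0.02. Of the 1112 genes called higher in set4Δ cells, 986 (88.7%) were called higher in wild-type cells too, where 1087 genes were higher (90.7% shared). Of 936 genes called lower, 802 (85.7%) were shared with the 867 of wild-type cells (92.5%), and 0 genes were called in opposite directions. Among wild-type libraries 18.1% of 6033 genes were higher and 14.4% lower. A call in 1 genotype alone is not a difference. Of 126 genes called higher only in set4Δ cells 10 passed the test of the difference itself, and of 134 called lower only there 8 did.

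**Figure D5:**
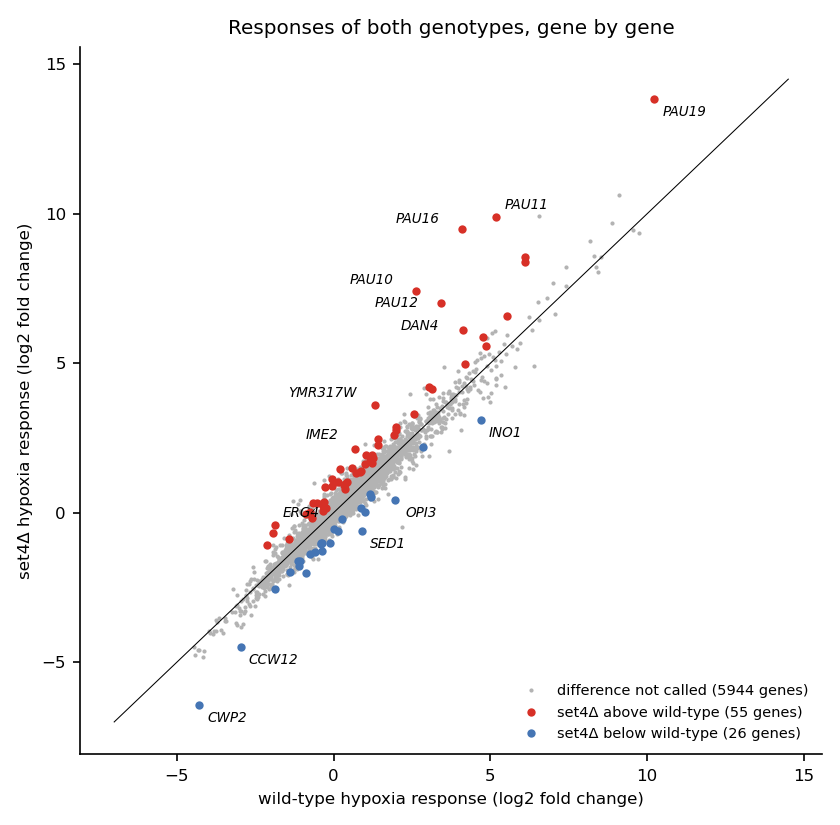
log2 fold change of hypoxia against air in set4Δ cells (vertical axis) against that in wild-type cells (horizontal axis) for 6025 genes, with the line of equal response. Red points mark 55 genes whose set4Δ response lies above and blue points 26 genes whose response lies below that of wild-type cells (adjusted p at most 0.05 for the difference); PAU16, PAU11 and PAU10 lie far above the line and CWP2 farthest below it.

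The test of the difference called 55 genes (0.913%) whose change was more positive and 26 (0.432%) whose change was more negative in set4Δ cells, with an adjusted p no larger than 0.05. At an unadjusted p of at most 0.05 there were 717 genes. These counts moved with single libraries, from 22 to 77 positive and from 9 to 42 negative differences when each of the 12 was left out, lowest in both directions without aerobic wild-type library 1. Of the 10 largest positive differences 7 were PAU genes, which wild-type cells also raised. PAU16 reached 1578, 1214 and 753 counts in hypoxic set4Δ libraries and 30.2, 26.7 and 33.6 in hypoxic wild-type libraries, while both genotypes had at most 2.17 in air. For PAU16 the difference of the log2 fold changes was 5.40 (adjusted p = 0.001 from limma). PAU11 reached 5774, 3947 and 5994 in set4Δ cells and 281, 162 and 327 in wild-type cells, a difference of 4.70. PAU10, PAU12, PAU3 and PAU15 differed by 4.78, 3.58, 2.46 and 2.28, and PAU19 by 3.61. The groups of hypoxic libraries did not overlap between genotypes for PAU16 and PAU11, but the share of all genes without such overlap was not counted. Of these, PAU15 and PAU19 lost the call without 1 library, PAU15 in 4 of 12 cases and PAU19 in 7 of 12, while PAU3, PAU10, PAU11, PAU12 and PAU16 kept it in each of the 12. In all 7 of the 19 PAU genes measured in both tables differed, each more positive, and with a median difference of 1.00 over the 19. The rest of the family did not pass the test, PAU13 at 0.28 and PAU24 at 0.90 among them. Since 15 of the 21 PAU genes are mostly repeated sequence, reads may be shared among copies, and differences of single PAU genes may not be separate results. PAU3 is not among these 15. The difference was not fitted without genes in repeated sequence.

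Outside the PAU family, DAN4 rose by 6.10 in set4Δ cells against 4.13 in wild-type cells (difference 1.97, adjusted p = 3.2e-04 from limma), the only 1 of 7 DAN and TIR genes to differ. YMR317W, an open reading frame of unknown function, had 17282, 17169 and 22175 counts in hypoxic set4Δ libraries and 3716, 3957 and 3095 in hypoxic wild-type libraries, a difference of 2.26. ERG4, the last enzyme of ergosterol synthesis, was not called in the mutant and lower in wild-type cells. ERG4 had 10792, 11270 and 11868 counts in air and 7852, 8363 and 9222 in hypoxia, whereas wild-type cells went from 12733, 12032 and 11464 to 3224, 3245 and 3367 (difference 1.46, adjusted p = 4.7e-05 from limma). The hypoxic libraries of the genotypes did not overlap for ERG4, a trait whose share over all genes was not counted. ERG4 stood alone in this, since none of the other 24 genes from acetyl-CoA to ergosterol differed. ECM22, at 1.11 against -0.04, IME2, at 2.13 against 0.69, HUG1, at 6.57 against 5.52, and SPO22, at 1.93 against 1.23, were also more positive in set4Δ cells.

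Among the negative differences CWP2 came first. CWP2 had a log2 fold change of -6.45 in set4Δ cells and of -4.29 in wild-type cells, whose hypoxic libraries held 1365, 1546 and 1090 counts, against 348, 409 and 285 in the mutant (difference -2.16, adjusted p = 3.3e-04 from limma). CCW12 had -4.50 against -2.97, with 6853, 7613 and 6979 counts in the mutant and 21068, 18412 and 17181 in wild-type cells. Further wall protein genes were called in neither genotype but differed in response. SED1 had -0.62 against 0.90, and TIP1 and CCW14, named after their values were seen, had 0.16 against 0.87 and -0.22 against 0.27. CCW14 lost the call of the difference in 8 of 12 fits without 1 library, while SED1 and TIP1 kept it in each. Thus 5 of 20 aerobic wall genes were more negative in set4Δ cells, while of 23 glucan and chitin genes 1 was more positive and 0 more negative. Among the genes of inositol and phospholipid synthesis, INO1 rose by 3.10 against 4.69, reaching 2196, 2286 and 1434 counts in the mutant and 5193, 8290 and 5008 in wild-type cells. OPI3, a methyltransferase of phosphatidylcholine synthesis, ended at 947, 899 and 1070 counts in the mutant and 2829, 2931 and 2343 in wild-type cells (difference -1.55). CHO2, the methyltransferase before it, differed by -0.61 and the inositol transporter gene ITR1 by -0.65. In all 4 of the 14 genes were more negative, and where 4 rose in set4Δ cells 8 rose in wild-type cells. The other large negative differences were YDL241W (-1.14), NCW2 (-0.99), YCL011C-A (-0.90), GLN1 (-0.89) and MOG1 (-0.76), of which MOG1 alone kept its call without each library in turn. INO1, CHO2 and ITR1 lost theirs in 5 or more of 12 cases.

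Levels compared directly between the genotypes in hypoxia, in the table of that comparison, moved the same way for these genes. PAU16 was higher in set4Δ cells by 5.16, PAU11 by 4.36, DAN4 by 2.46 and ERG4 by 1.34 on the log2 scale, and CWP2, OPI3 and CCW12 were lower by 1.96, 1.49 and 1.42. This table shares its 6 hypoxic libraries with the responses and is no independent support. It called 48 genes higher (0.817%) and 23 lower (0.391%) of 5875. Genes within 40 kb of chromosome ends made up 16 of the 55 positive differences and 2 of the 26 negative ones, over 487 such genes of 6025, and 8 of the 16 were left without the PAU, DAN, TIR and COS genes.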

How the data were processed

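Total RNA of set4Δ and wild-type BY4741 cells, grown in air or hypoxia, had been depleted of ribosomal RNA and sequenced as stranded libraries. For trimming the authors used Trimmomatic (0.36), for alignment STAR (2.5.2b), for gene counts featureCounts from Subread (1.5.2) and for normalization DESeq2. Genome build, strand setting and treatment of multi-mapping reads: not given in the sources used here. The deposited values are a signal in normalized counts, that is counts divided by library size factors, and every value was a whole multiple of 1 step per column, from which the reads in genes were computed. The low values alone did not give this step in most columns, and no count model was fitted. The authors' fold changes and p-values, held in the same tables, were not used, and 6 columns of per-sample values of a further table were not used either.

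Values were analysed as log2(value + 1) by limma (3.58.1; R 4.3.3) using a trended prior variance and Benjamini-Hochberg adjustment over all genes of a table. Log2 fold changes are on this scale and understate the change of low genes. Calls needed a log2 fold change of 1 or more either way with an adjusted p no larger than 0.05. The difference of responses was a contrast over 12 libraries, called at an adjusted p of at most 0.05. Tests are two-sided. The genes and gene lists described were chosen with earlier results of these data known. Names were taken from among SET4 and its neighbours, the strain markers, the 15 largest changes each way with groups that did not overlap, the 10 largest gains and losses of counts, up to 6 called genes per list and direction, any gene called against its list, members of lists of up to 15 genes, the 10 largest differences each way and 14 single genes; names given outside this rule are marked or stand in the closing section. Names and positions came from RefSeq R64, to which 5946 of 6058 genes were matched. The script was tested on simulated data. Depth was 21732786 to 25864209 reads in genes per set4Δ library, and counting intervals cover counting error only. Alternatives were another pseudocount, filter, scaling, variance prior and threshold, a replicate block, leaving out genes in repeated sequence and leaving out each library.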

Additional observations from a re-analysis of the deposited data

Results flagged for a closer look

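The following genes are given because their response to hypoxia differed between set4Δ and wild-type cells in the test of the difference itself (adjusted p at most 0.05 from limma over 12 libraries). They are only the genes named in this report, out of 55 positive and 26 negative differences called, and those left out include some larger ones. Each value is the log2 fold change in set4Δ cells minus that in wild-type cells. Among the anaerobic wall genes the differences were 5.40 for PAU16, 4.78 for PAU10, 4.70 for PAU11, 3.61 for PAU19, 3.58 for PAU12, 2.46 for PAU3, 2.28 for PAU15 and 1.97 for DAN4. Among other wall protein genes they were -2.16 for CWP2, -1.53 for CCW12, -1.52 for SED1, -0.99 for NCW2, -0.71 for TIP1 and -0.48 for CCW14. SCW4, of the glucan and chitin list, differed the other way, at 0.61, a call lost in 9 of 12 fits without 1 library. In lipid and sterol genes they were 1.46 for ERG4, 1.15 for ECM22, -1.59 for INO1, -1.55 for OPI3, -0.65 for ITR1 and -0.61 for CHO2. The genes of mannosyl transfer, PMT3 and PMT5, differed by 1.14 and 0.94. The purine genes ADE1, ADE17, HPT1 and ADE13 differed by -0.69, -0.66, -0.57 and -0.46. The retrotransposon genes YJL114W, YJL113W and YHL009W-B differed by 1.11, 0.76 and 0.71. Of the remaining genes YMR317W, IME2, HUG1 and SPO22 differed by 2.26, 1.44, 1.05 and 0.70, and YDL241W, YCL011C-A, GLN1, MOG1 and ZRT1 by -1.14, -0.90, -0.89, -0.76 and -0.63. The number of these calls depended on single libraries, as given among the processing results.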

How the results depend on the processing

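The response of set4Δ cells kept within 1.5 times its counts of 1128 higher and 938 lower under other pseudocounts, a minimum mean of 50 (1053 and 925), both scalings, other variance priors and without repeated genes (1035 and 915). Leaving out each library gave 1095 to 1156 higher and 909 to 953 lower. By adjusted p alone 2398 genes were higher and 2410 lower, and list members called came to 1018; limma's treat, which tests against a log2 fold change of 1, gave 712 and 549. Quantile normalization shifted the median of all genes to -0.13 and gave 918 higher and 1059 lower, against 1233 and 844 after scaling to equal totals, where the median was 0.08. The differences of response fell to 22 positive and 6 negative when a difference of at least 1 was also asked for, and ranged from 22 to 77 and from 9 to 42 without 1 library. Same-numbered libraries did not deviate together (r = 0.16, 0.02 and -0.01 over 5856 genes), and with the replicate number as a block 1126 genes were higher and 939 lower, and 52 and 28 differences were called. Of 1980 list counts under the alternatives 1869 stayed within 1.5 times. After quantile normalization CLB6 had -4.77 (-3.54), SPS4 -2.75 (-1.57), SPC24 -2.38 (-1.78), COS4 2.28 (3.17), YPS5 1.42 (2.22) and FLO11 -1.18 with a call (-0.43). Genes near 0 changed sign without a call. AAC3 (0.08) was -0.12 and TFC1 (0.04) -0.05 after quantile normalization, where SCR1 was -0.00, and HTZ1 (-0.01) was 0.06 at equal totals. Without 1 library AAC3 ranged from -0.15 to 0.25, HTZ1 from -0.03 to 0.01 and NCW2 (0.01) from -0.11 to 0.15. The edgeR and DESeq2 alternatives were not run, since the deposited values are normalized and the step worth 1 read could not be read from the low values alone in most columns. Depth limits genes near 0 in air, such as PAU16, PAU19 and PAU21, whose fold changes depend on the pseudocount.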

Other observations

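Families looked up after the values were seen showed further responses. Of 7 protein O-mannosyltransferase genes, whose enzymes start the sugar chains of wall mannoproteins, 3 fell in set4Δ cells and none rose, with a median of -0.89. PMT4 had 10045, 11330 and 10955 normalized counts in air and 1174, 1305 and 1236 in hypoxia, and PMT1 and PMT2 fell, at -2.31 and -2.52. PMT3 and PMT5, at 0.86 and 0.88, were not called but were more positive than in wild-type cells by 1.14 and 0.94 (adjusted p = 0.017 and 0.032 from limma), calls that PMT3 lost in 2 and PMT5 in 8 of 12 fits without 1 library. PMT3 reached 3448, 3569 and 4572 counts in hypoxia from 2062, 2174 and 2098 in air.

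Of 13 genes of purine synthesis and salvage 4 fell and none rose (median -0.67), and 4 had a more negative response than in wild-type cells, ADE1 by -0.69, ADE17 by -0.66, HPT1 by -0.57 and ADE13 by -0.46. Without 1 library at a time ADE1 and HPT1 kept this call in each of 12 fits, and ADE17 and ADE13 lost it in 9. Of the 4 that fell, ADE17 was at -0.93 and not called without hypoxic library 3. ADE1 had 3923, 4015 and 3823 counts in air and 1692, 1620 and 1470 in hypoxia. Of 47 measured retrotransposon genes, all in repeated sequence, 21 rose and 1 fell (median 0.83), beside 27 higher and 0 lower in wild-type cells. YJL113W had 352, 302 and 368 counts in air and 10544, 10322 and 10938 in hypoxia, and YJL113W, YJL114W and YHL009W-B were more positive than in wild-type cells by 0.76, 1.11 and 0.71, calls lost in 8, 9 and 9 of 12 such fits. How reads were divided among the copies was not tested.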
